A study of Homo sapiens with 4 samples.

Results

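Replication-dependent histone genes encode the bulk of the histones that package newly made DNA, and they lie close together in the clusters named HIST1, HIST2, HIST3 and HIST4. They were followed here in the human breast cancer cell line MDA-MB-231, which had received by lentivirus either a short hairpin against JARID2 (shJARID2) or a scrambled one (shSCR). A gene was a member if its deposited symbol began with HIST, a cluster number from 1 to 4 and the name of a histone type (H1, H2A, H2B, H3 or H4), leaving out symbols that end in PS and a digit. This gave 61 members among the 25133 rows with a gene symbol, with no filter on expression: 6 of type H1, 13 H2A, 16 H2B, 11 H3 and 15 H4. By cluster, 43 belonged to HIST1 on chromosome 6, 15 to HIST2 and 2 to HIST3 on chromosome 1, and 1 to HIST4 on chromosome 12. GENCODE release 29 annotates 4 of the 61 as pseudogenes (HIST2H2BA, HIST2H2BB, HIST2H2BC and HIST2H3DP1).

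In most cells these genes are transcribed strongly in S phase, when DNA is copied. Their mRNAs carry no introns as a rule and end in a conserved stem-loop instead of a poly(A) tail. The stem-loop binding protein SLBP and the U7 snRNP direct the cut that makes this end, and NPAT activates transcription at the clusters. Core histones H2A, H2B, H3 and H4 form the nucleosome, and H1 binds the linker DNA between nucleosomes. JARID2 is an accessory subunit of Polycomb repressive complex 2, which methylates histone H3 at lysine 27.

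Each hairpin was represented by 2 libraries made from total RNA of infected cells that are otherwise labelled wild type. Separate cultures are not named in the labels, so p-values reflect only how far these libraries spread, which may be technical. The labels name a single cell line and do not give the number of hairpins or clones or the time after infection. JARID2 was at 10.8 and 10.8 FPKM in shSCR replicates 1 and 2 and at 3.88 and 3.91 FPKM in shJARID2 replicates 1 and 2. FPKM relate reads to the exon length of a gene and to the depth of the library, so levels below are per length. Among the markers of this cell line, CD44 was at 69.0 ± 0.109 FPKM in shSCR (SD, n = 2) and the epithelial and hormone receptor genes ESR1, PGR and CDH1 stayed at or below 0.203 FPKM in every library. ERBB2, a receptor gene listed as low in this line, was at 15.5 and 15.7 FPKM in shSCR and at 6.58 and 7.57 FPKM in shJARID2. AXL went from 405 ± 17.3 to 176 ± 13.5 FPKM and CAV1 from 100.2 ± 1.68 to 195 ± 13.7 FPKM (SD, n = 2 each). VIM, a defining gene of mesenchymal-like cells, was at only 2.10 to 4.20 FPKM over the 4 libraries.

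Depths of about 12800000 to 16200000 counted reads per library were recovered from the steps between low FPKM values. Reads that match several histone genes equally well can be split or dropped by the counting, and the rule used is not given in the sources used here. How RNA was selected for the libraries is not given either, so it is not known what part of the mRNAs without a poly(A) tail was captured. Over the 12097 tested rows with a GC value, the log2 fold change ran against the GC content of the transcript, with a Spearman's rho of -0.67 across genes, which are not independent replicates. A second fit with this GC trend removed from each library, called GC-corrected, is therefore given beside most calls and fold changes. Sums, shares and ratios of FPKM are given as measured only.

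The stem-loop is shown because it defines the class. It was found in the annotated transcripts of 28 members, 27 of them among the 32 coding members that GENCODE annotates beyond the stop codon. For 25 coding members the annotated model ends at the stop codon. The stem-loop began 22 to 67 bases after the stop codon. In the following lines the 16 bases of the stem-loop are in capitals, with 5 bases on each side, 5′ to 3′ as DNA from GENCODE release 29 (GRCh38).
HIST1H2AG: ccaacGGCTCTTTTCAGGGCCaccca
HIST1H2BC: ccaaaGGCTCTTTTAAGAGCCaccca
HIST2H2BE: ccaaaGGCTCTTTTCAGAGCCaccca
HIST1H3H: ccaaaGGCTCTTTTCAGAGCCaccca
HIST1H4B: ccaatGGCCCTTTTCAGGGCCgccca
HIST1H4I: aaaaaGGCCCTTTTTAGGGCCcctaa
The form of HIST2H2BE and HIST1H3H, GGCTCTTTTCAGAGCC, was the most frequent, in 14 members. The form of HIST1H4B occurred in 5 members, all of type H4, and that of HIST1H4I in 3, together with HIST2H4A and HIST2H4B.

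As measured, histone cluster mRNA was lower in the JARID2-knockdown libraries, in the summed FPKM of every histone type. Summed over all 61 members, the level was 6610 and 6413 FPKM in the shSCR libraries and 3099 and 3354 FPKM in the shJARID2 libraries. The mean sum went from 6511 ± 139 to 3227 ± 180 FPKM (SD, n = 2 each), a ratio of 0.496. Members made up 3.58% and 3.44% of the FPKM of all named rows in shSCR and 1.69% and 1.84% in shJARID2. In bulk RNA, fewer cells in S phase and less histone mRNA per cell cannot be told apart. An exact two-sided permutation test of 2 libraries against 2 cannot go below 0.333, so no p-value is given for sums or ratios.

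In the gene-wise test, 40 of the 61 members reached a mean of 1 FPKM and were tested together with all 12455 such rows. Calls are those of limma on log2(FPKM + 1) with a Benjamini-Hochberg adjusted p below 0.05, and log2 fold changes are of shJARID2 against shSCR on that scale. Of the 40, 37 changed, against 59.7% of all tested rows. Of these, 36 fell, against 31.6% of all tested rows. HIST1H4I alone rose, against 28% of all tested rows, and HIST1H2BD, HIST2H2BA and HIST2H3DP1 did not pass. The median log2 fold change of the 40 was -0.99, and that of all tested rows was -0.02. After GC correction 23 members were called lower and 4 higher, against 21.5% and 22.8% of all tested rows, with a median of -0.58 against 0.00062.

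Counting libraries instead of p-values, both knockdown libraries lay below both controls for 37 of the 40 tested members, against 43.1% of all tested rows. For 2, HIST1H4I and HIST2H2BA, they lay above, against 39.8% of all tested rows, and for HIST1H2BD the groups overlapped. The mean level was at most 0.5 of that in shSCR for 24 members, against 11.9% of all tested rows. A log2 fold change of -2 or less was reached by 7 members (6 H2A genes and HIST1H3H), against 0.305% of all tested rows.

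**Figure D1:**
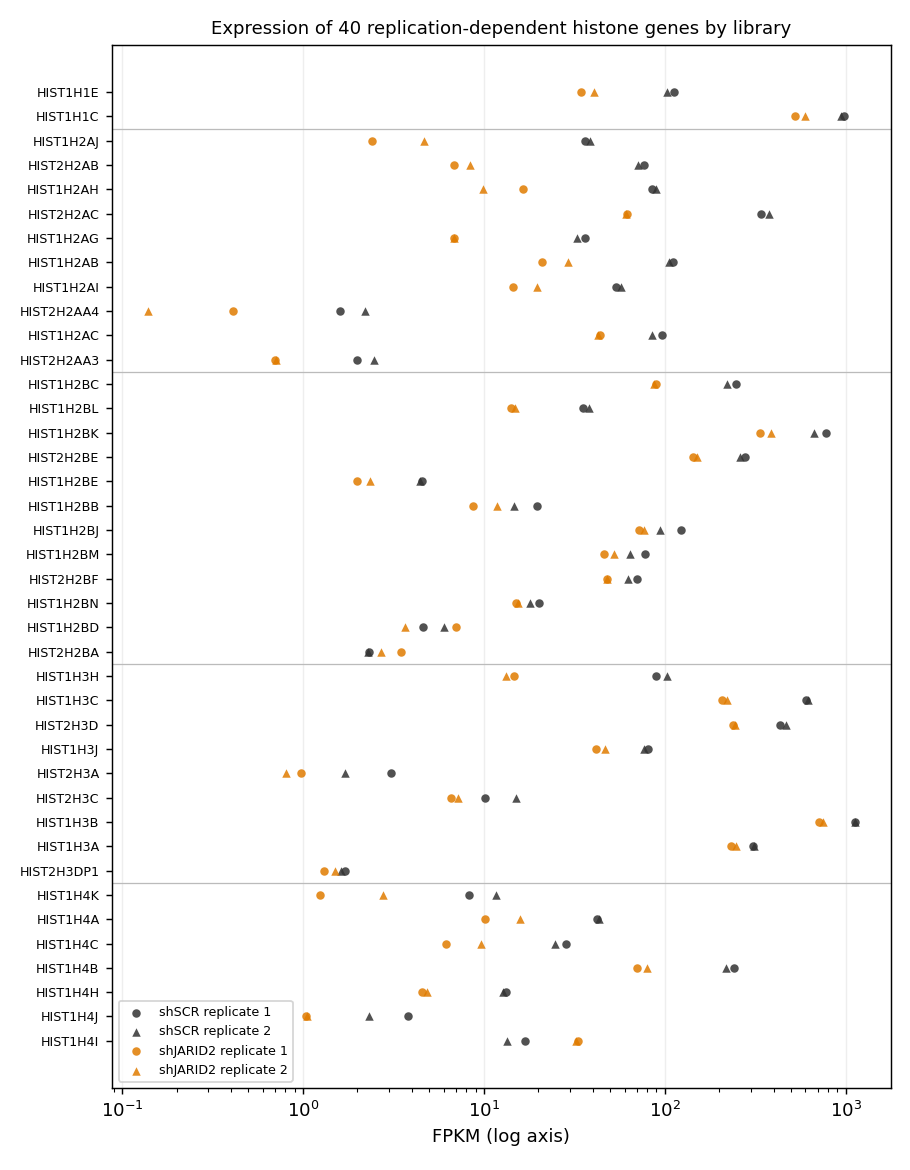
FPKM on a log axis in each of the 4 libraries for the 40 tested histone genes, grouped by type (H1, H2A, H2B, H3, H4 from the top) and ordered by fold change within a type. Both shJARID2 libraries lie left of both shSCR libraries for 37 genes, and HIST1H4I lies to the right.

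A few genes carried most of the signal. HIST1H3B held 19.1% of the members' FPKM over the 4 libraries, HIST1H1C 15.6% and HIST1H2BK 11.1%, and the leading 10 genes held 82.1%. The H3 genes together gave 40.2% and 42.5% of the members' FPKM in shSCR and at 46.8% and 45.7% in shJARID2. The H2A genes went the other way, from 12.7% and 13.4% to 5.64% and 5.46%, with no overlap between the groups. H1 genes moved from 16.5% and 16.4% to 18.1% and 19.1%, H4 genes from 5.40% and 5.13% to 4.12% and 4.38%, and H2B genes stood at 25.2% and 22.7% against 25.3% and 25.4%.

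**Figure D2:**
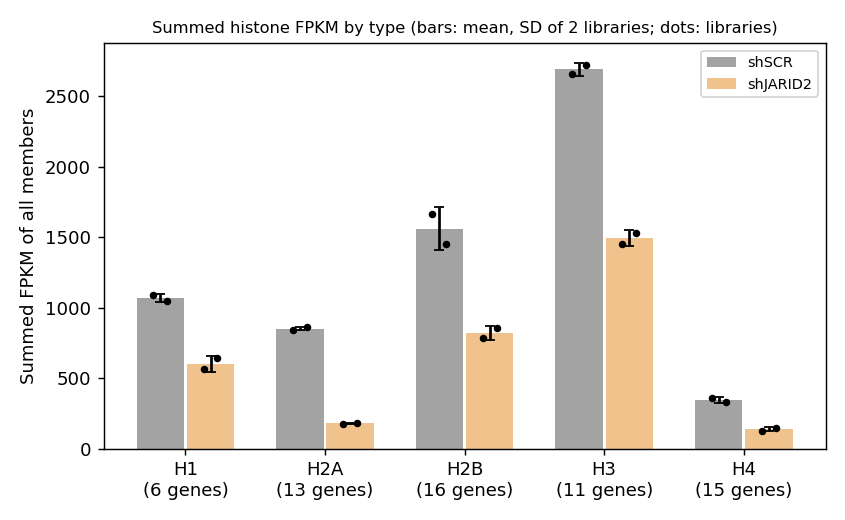
Summed FPKM of all members of each histone type, with bars for the mean and SD of 2 libraries and dots for the libraries. All sums were lower in shJARID2, with ratios of 0.562 for H1, 0.210 for H2A, 0.525 for H2B, 0.554 for H3 and 0.400 for H4.

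Among the linker histones, HIST1H1C and HIST1H1E were expressed and both fell. HIST1H1C, which encodes linker histone H1.2, was at 974.9 and 946.3 FPKM in shSCR and at 527.8 and 598.8 FPKM in shJARID2. HIST1H1E, which encodes H1.4, was at 112.7 and 102.4 FPKM against 34.3 and 40.6 FPKM. The groups did not overlap for either gene, and neither shares any 50-base stretch with the annotated transcripts of another gene, so 50 bases from either match no other annotated transcript. The log2 fold changes were -0.77 (SE 0.077, adjusted p = 0.0024 by limma) and -1.5 (SE 0.0998, adjusted p = 0.0014), and -0.30 and -0.89 after GC correction, both still called. HIST1H1A reached at most 0.597 FPKM, and the testis histone HIST1H1T at most 0.809 FPKM. HIST1H1B and HIST1H1D, also without shared stretches, were at or below 0.227 FPKM in every library.

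The H2A genes had the most negative median of the histone types. All 10 tested members fell, with a median log2 fold change of -2.13 and a range from -3.13 to -0.92, and 8 remained called lower after GC correction, with a median of -1.64. Their summed level went from 851 ± 12.4 to 179 ± 5.80 FPKM (SD, n = 2 each). HIST1H2AJ (chr6:27814354-27814740, GRCh38) was at 36.2 and 38.6 FPKM in shSCR and at 2.39 and 4.64 FPKM in shJARID2, or 217 and 242 reads against 12 and 23. Its log2 fold change was -3.13 (SE 0.25, adjusted p = 0.0017 by limma), and -2.41 after GC correction. In its transcript 83.7% of the 50-base stretches also occur in transcripts of other genes, so its level depends on how such reads were counted. The same size of change was seen in a gene with few shared stretches. HIST2H2AB (chr1:149887524-149887916), with 2.03% shared, was at 76.3 and 70.9 FPKM against 6.88 and 8.35 FPKM, a log2 fold change of -3.12 (SE 0.0998, adjusted p = 0.0014) and -2.38 after GC correction.

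HIST2H2AC (chr1:149886975-149887364), the most abundant H2A gene, was at 342 and 375 FPKM in shSCR and at 61.8 and 61.1 FPKM in shJARID2. The groups were far apart, with a log2 fold change of -2.52 (SE 0.058, adjusted p = 0.0014 by limma) and -1.79 after GC correction. HIST1H2AH was at 84.9 and 89.2 FPKM against 16.6 and 9.89 FPKM, with a log2 fold change of -2.67 (SE 0.24). HIST1H2AG was at 36.1 and 32.8 FPKM against 6.83 and 6.84 FPKM, with -2.18 (SE 0.065). HIST1H2AB was at 111.6 and 106.0 FPKM against 21.02 and 29.02 FPKM, with -2.09 (SE 0.16). These 3 genes share at most 4.36% of their 50-base stretches with other genes, and they kept their calls after GC correction at -1.98, -2.30 and -1.49.

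On the log2(FPKM + 1) scale, the smaller H2A changes were those of HIST1H2AI, HIST1H2AC and the HIST2H2AA3 and HIST2H2AA4 copies. HIST1H2AI was at 53.9 and 57.5 FPKM against 14.6 and 19.6 FPKM, a log2 fold change of -1.66 (GC-corrected -1.08). HIST1H2AC, whose mRNA is known to exist in a polyadenylated form as well, was at 97.0 and 84.6 FPKM against 43.7 and 42.8 FPKM, or -1.05 (GC-corrected -1.35). HIST2H2AA3 and HIST2H2AA4 have identical coding sequences and were at or below 2.48 FPKM throughout. Both fell (-0.92 and -1.18), and neither was called after GC correction (-0.23 and -0.50). At such low FPKM the added 1 shrinks the log2 fold change. Their mean levels in shJARID2 were 0.316 and 0.145 of those in shSCR. In shJARID2 they rest on 5 and 5 reads (HIST2H2AA3) and on 3 and 1 reads (HIST2H2AA4).

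H2B genes fell in 10 of 12 tested cases, with a median log2 fold change of -0.61 and a range from -1.40 to 0.30. After GC correction 6 were called lower, 1 higher and 5 not called, with a median of -0.44. HIST1H2BK, the most abundant, was at 782 and 665 FPKM in shSCR and at 335 and 386 FPKM in shJARID2. Its log2 fold change of -1.002 (SE 0.11, adjusted p = 0.0031 by limma) was -0.34 after GC correction and then did not pass, and 74.1% of its 50-base stretches are shared. HIST1H2BC, with 6.63% shared, was at 248 and 222 FPKM against 89.3 and 87.1 FPKM, the largest H2B change at -1.40 (SE 0.067) and -1.29 after correction. HIST2H2BE was at 277 and 259 FPKM against 143 and 151 FPKM, or -0.86 (GC-corrected -0.91).

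The other H2B genes that fell ranged from HIST1H2BL to HIST1H2BN in size. HIST1H2BL was at 35.4 and 38.2 FPKM against 14.1 and 14.9 FPKM (-1.29), and HIST1H2BE at 4.54 and 4.42 FPKM against 2.00 and 2.36 FPKM (-0.79). HIST1H2BJ was at 123 and 94.6 FPKM against 72.0 and 77.2 FPKM (-0.53), and HIST2H2BF at 70.4 and 62.7 FPKM against 47.8 and 47.7 FPKM (-0.47). All 4 were still called lower after GC correction. HIST1H2BB (-0.69), HIST1H2BM (-0.51) and HIST1H2BN (-0.31) fell as measured and were not called after it, at -0.41, -0.16 and -0.08. Of these, HIST1H2BB was at 19.6 and 14.8 FPKM in shSCR and at 8.71 and 11.9 FPKM in shJARID2, with an adjusted p of 0.038 by limma.

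The calls of 4 H2B genes were lost in fits with a library left out. Such fits have fewer residual degrees of freedom, so a lost call does not show that it rested on that library. Without shJARID2 replicate 1, HIST1H2BB, HIST1H2BJ, HIST1H2BM and HIST1H2BN did not pass (limma adjusted p = 0.11, 0.10, 0.074 and 0.077). Without shJARID2 replicate 2 this held for HIST1H2BJ and HIST1H2BN (0.066 and 0.059), and without shSCR replicate 1 for HIST1H2BB, HIST1H2BM and HIST1H2BN (0.14, 0.061 and 0.082). Their log2 fold changes stayed negative in each case.

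HIST1H2BD was the single tested member with overlapping groups, at 4.59 and 6.03 FPKM against 7.004 and 3.68 FPKM. The pseudogene HIST2H2BA was at 2.30 and 2.29 FPKM in shSCR and at 3.47 and 2.69 FPKM in shJARID2, a log2 fold change of 0.30 (adjusted p = 0.11 by limma) that was called higher after GC correction at 0.65, and without shJARID2 replicate 2 at 0.44 (adjusted p = 0.041 by limma). Of its 50-base stretches, 73.6% are shared with other genes. Among 6 members known from textbook examples to give polyadenylated mRNA as well (HIST1H1C, HIST1H2AC, HIST1H2BC, HIST1H2BD, HIST1H2BK and HIST2H2BE), 5 fell and HIST1H2BD did not pass, with a median of -0.93, and 4 were called lower after GC correction. The 16 tested members whose annotated model ends at the stop codon all fell, with a median of -1.25. All 8 with some but fewer than 200 annotated bases beyond it fell too, with a median of -1.39. Of 14 with 200 or more, 12 fell, with a median of -0.80. By comparison, 31.6% of all tested rows fell. In this order, the groups had a median GC content of 60.9%, 59.9% and 49.1%. After GC correction 9, 5 and 9 were called lower and 1, 0 and 1 higher, with medians of -0.66, -0.86 and -0.58. The shares over all tested rows were then 21.5% lower and 22.8% higher.

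Many H2A and H2B genes stand head to head and share the DNA between their starts, so members of a pair can be compared within a library. With starts at most 500 bases apart, 8 such pairs were found, and both genes were tested in 6. The H2A to H2B ratio of FPKM was lower in both shJARID2 libraries than in both shSCR libraries in 5 of the 6 pairs. HIST1H2AJ to HIST1H2BM had ratios of 0.467 and 0.605 in shSCR and 0.0520 and 0.0888 in shJARID2. HIST2H2AC to HIST2H2BE had 1.24 and 1.45 against 0.431 and 0.405, and HIST1H2AG to HIST1H2BJ 0.293 and 0.346 against 0.0948 and 0.0886. In these pairs the log2 fold change of the H2A gene minus that of the H2B gene was -2.62, -1.66 and -1.65. HIST1H2AH to HIST1H2BK moved from 0.109 and 0.134 to 0.0495 and 0.0256, and HIST1H2AI to HIST1H2BL from 1.52 and 1.503 to 1.04 and 1.31. The exception was HIST1H2AC to HIST1H2BC, with 0.390 and 0.381 against 0.489 and 0.491. Shared 50-base stretches made up 83.7% of those of HIST1H2AJ, 74.1% of HIST1H2BK, 62.3% of HIST1H2AI and 30.5% of HIST2H2AC. With 100-base stretches the shares were 80.9%, 28.4%, 57.7% and 17.2%, in the same order. The ratios of the pairs of these genes thus depend on how such reads were counted. The genes of HIST1H2AG to HIST1H2BJ share at most 4.65%, and those of HIST1H2AC to HIST1H2BC at most 6.63%. These pairs moved in opposite directions. After GC correction the H2A gene had the more negative value in all 6 pairs, by only 0.06 for HIST1H2AC and HIST1H2BC.

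**Figure D3:**
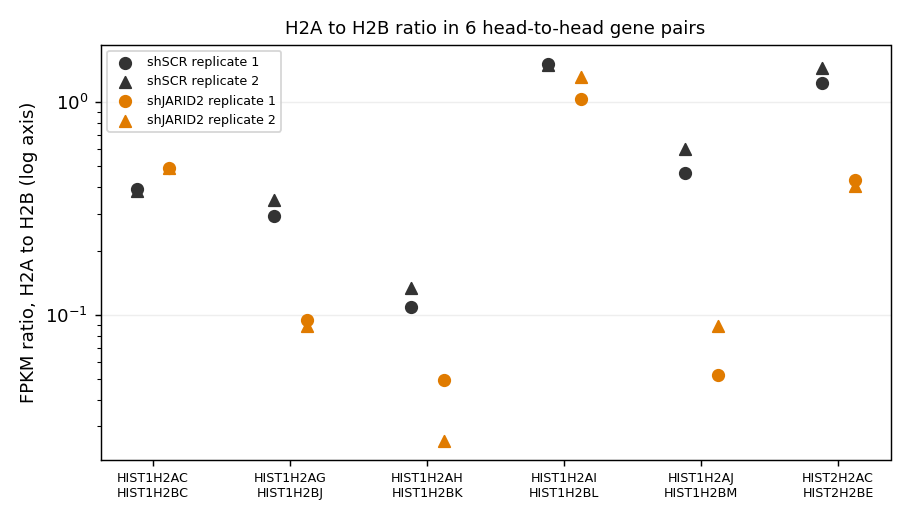
Ratio of H2A to H2B FPKM on a log axis in each library for the 6 head-to-head pairs in which both genes were tested. The ratio is lower in both shJARID2 libraries in 5 pairs and higher in the pair of HIST1H2AC and HIST1H2BC (0.489 and 0.491 against 0.390 and 0.381).

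The DNA upstream of these pairs is shown for the H2A gene of the pair that differed most and for the most abundant H2A gene. Each run is the 250 bases before the RefSeq start, 5′ to 3′ on the strand of the named gene (GRCh38.p14), with capitals for the TATA box TATAAA, the sequence CCAAT and the octamer ATTTGCAT on either strand. The first is from chr6:27814778-27815027 on the minus strand and the next from chr1:149886668-149886917 on the plus strand.
HIST1H2AJ: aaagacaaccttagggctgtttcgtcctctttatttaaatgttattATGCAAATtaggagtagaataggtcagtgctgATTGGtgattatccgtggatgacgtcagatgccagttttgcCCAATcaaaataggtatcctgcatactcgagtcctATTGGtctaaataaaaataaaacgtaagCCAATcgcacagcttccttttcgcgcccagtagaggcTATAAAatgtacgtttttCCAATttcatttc
HIST2H2AC: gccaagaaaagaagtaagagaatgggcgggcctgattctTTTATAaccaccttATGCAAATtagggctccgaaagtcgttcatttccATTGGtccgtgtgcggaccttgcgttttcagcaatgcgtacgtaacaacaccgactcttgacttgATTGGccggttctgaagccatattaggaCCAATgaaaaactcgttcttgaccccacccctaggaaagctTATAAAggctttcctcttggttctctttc
These windows are nearly the same DNA as those of the H2B partners, since HIST1H2AJ and HIST1H2BM share 244 of the 250 bases and HIST2H2AC and HIST2H2BE share 235. Of the 53 members with a RefSeq entry, 67.9% hold TATAAA, 81.1% CCAAT and 32.1% the octamer, against 11.1%, 33.0% and 1.66% of the 27305 windows in the whole table. The octamer was found in 8 of 12 H2A and 9 of 13 H2B windows and in no H1, H3 or H4 window. CCAAT was in all H1, H2A, H2B and H3 windows and in 3 of 13 H4 windows. A match to these letters is a description of the window and not a shown binding site.

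The H3 genes, which had the highest summed level, fell in 8 of 9 tested cases, with a median log2 fold change of -0.82. This was the type whose calls changed most with the GC content: after correction 2 were called lower, 2 higher and 5 not called, with a median of -0.10. These counts of 9 were near the shares over all tested rows, 21.5% lower and 22.8% higher. HIST1H3B was at 1129 and 1129 FPKM in shSCR and at 710 and 747 FPKM in shJARID2, a log2 fold change of -0.63 (SE 0.053, adjusted p = 0.0018 by limma) that was -0.07 and not called after correction. HIST2H3D (434 and 465 against 237 and 245 FPKM, -0.90) and HIST1H3J (81.0 and 76.7 against 41.4 and 46.8 FPKM, -0.83) were likewise not called after it, at 0.04 and -0.17. Of their 50-base stretches, 80.4% and 40.9% are shared with other genes. The exons of HIST1H3J also overlap those of HIST1H2AM over 44.6% of their length. The levels of HIST2H3D and HIST1H3J thus depend on how such reads were counted. HIST1H3A was at 308 and 312 FPKM against 232 and 248 FPKM, -0.37 as measured, and was called higher after correction at 0.26.

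HIST1H3C and HIST1H3H kept their calls. HIST1H3C was at 600 and 619 FPKM in shSCR and at 206 and 222 FPKM in shJARID2, with a log2 fold change of -1.51 (SE 0.055) and -0.91 after correction. HIST1H3H (chr6:27810064-27811300) was at 89.4 and 102 FPKM against 14.7 and 13.3 FPKM, with -2.69 (SE 0.089, adjusted p = 0.0014 by limma) and -2.68 after correction. Neither gene shares a 50-base stretch with another, and the proteins of HIST1H3A, HIST1H3B, HIST1H3C, HIST1H3H and HIST1H3J are all known as histone H3.1. Genes of this protein thus ranged from -2.69 to -0.37 as measured. HIST2H3A and HIST2H3C have identical coding sequences and fell by 0.82 and 0.76 on the log2 scale, at 15.1 FPKM or less, and were not called after correction. Without shJARID2 replicate 1 they did not pass either (limma adjusted p = 0.085 and 0.095), nor without shJARID2 replicate 2 (0.11 and 0.068), and HIST2H3A did not without shSCR replicate 1 (0.096). HIST2H3DP1, a pseudogene, was at 1.71 and 1.63 FPKM against 1.30 and 1.502 FPKM, did not pass, and was called higher after correction at 0.75, with 64.9% of its stretches shared.

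H4 genes fell in 6 of 7 tested cases, with a median log2 fold change of -1.60 and, after GC correction, 5 lower, 1 higher and 1 not called with a median of -1.12. HIST1H4B, the most abundant, was at 241 and 219 FPKM in shSCR and at 70.3 and 79.9 FPKM in shJARID2 (-1.60, SE 0.086, adjusted p = 0.0014 by limma). HIST1H4A was at 42.4 and 43.4 FPKM against 10.1 and 15.8 FPKM (-1.68), and HIST1H4C at 28.5 and 24.7 FPKM against 6.21 and 9.70 FPKM (-1.65). HIST1H4H was at 13.2 and 12.7 FPKM against 4.53 and 4.87 FPKM (-1.29). These 4 share at most 1.80% of their 50-base stretches and were called lower after correction too, at -1.36, -1.05, -1.61 and -1.51. HIST1H4K and HIST1H4J have identical coding sequences. HIST1H4K was at 8.27 and 11.7 FPKM against 1.24 and 2.75 FPKM (-1.90, GC-corrected -1.12), and HIST1H4J at 3.81 and 2.32 FPKM against 1.03 and 1.05 FPKM (-0.97), with -0.26 and no call after correction. HIST1H4J also did not pass without shJARID2 replicate 1 or 2 (limma adjusted p = 0.057 and 0.053).

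HIST1H4I (chr6:27138588-27139881) was the only member called higher as measured. It was at 16.9 and 13.4 FPKM in shSCR and at 33.2 and 32.2 FPKM in shJARID2, or 339 and 281 reads against 556 and 533. The knockdown libraries were both well above the controls, with a log2 fold change of 1.07 (SE 0.11, adjusted p = 0.0027 by limma) and 0.94 after GC correction. Its neighbours on either side among the members moved down: HIST1H2AG by -2.18 and HIST1H2BK by -1.002. The annotated model of HIST1H4I is 1294 bases long and starts 694 bases before the RefSeq start, and an FPKM value does not tell which part of the model the reads cover. Only 0.562% of its 50-base stretches are shared with other genes.

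By cluster, HIST1 and HIST2 were both lower in shJARID2. In HIST1, 27 of 29 tested members fell, HIST1H4I rose and HIST1H2BD did not pass, with a median of -1.29 and a summed level that went from 5268 ± 166 to 2707 ± 169 FPKM, a ratio of 0.514. In HIST2, 9 of 11 fell and 2 did not pass, with a median of -0.86 and a summed level that went from 1242 ± 27.5 to 519 ± 10.9 FPKM, a ratio of 0.418 (SD, n = 2 each). After GC correction HIST1 had 19 lower and 2 higher, with a median of -0.89, and HIST2 had 4 lower and 2 higher, with a median of -0.23. Over all tested rows, 21.5% were then lower and 22.8% higher. A gap of 840259 bases parts HIST1. Upstream of it 14 of 15 tested members fell, with a median of -1.29, and downstream 13 of 14 fell, with a median of -1.15. With GC correction 11 upstream and 8 downstream were called lower and 1 on each side higher, with medians of -0.91 and -0.68. No HIST3 gene reached the filter. HIST4H4, the single HIST4 gene, was at 1.10 and 0.959 FPKM in shSCR and at 0.0300 and 0.151 FPKM in shJARID2, or 44 and 40 reads against 1 and 5, and was below the filter on its mean and not tested.

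Across the 40 tested members the log2 fold change had a Spearman's rho of -0.24 with the transcript's GC content, and 0.10 after correction, as a description over genes that share the same 4 libraries. Members with the same GC content could still differ. HIST1H4I and HIST1H2AG both had 46.8% GC, with log2 fold changes of 1.07 and -2.18. HIST1H3A, at 60.6%, changed by -0.37, and HIST1H2AB, at 60.1%, by -2.09. The GC content is that of the annotated model, so the size of the correction depends on where the model ends. HIST1H3B, whose model ends at the stop codon, had 59.1% GC. HIST1H3H, with 816 annotated bases beyond it, had 49.1%. The part of GC content in the result was not tested beyond the corrected fit.

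**Figure D4:**
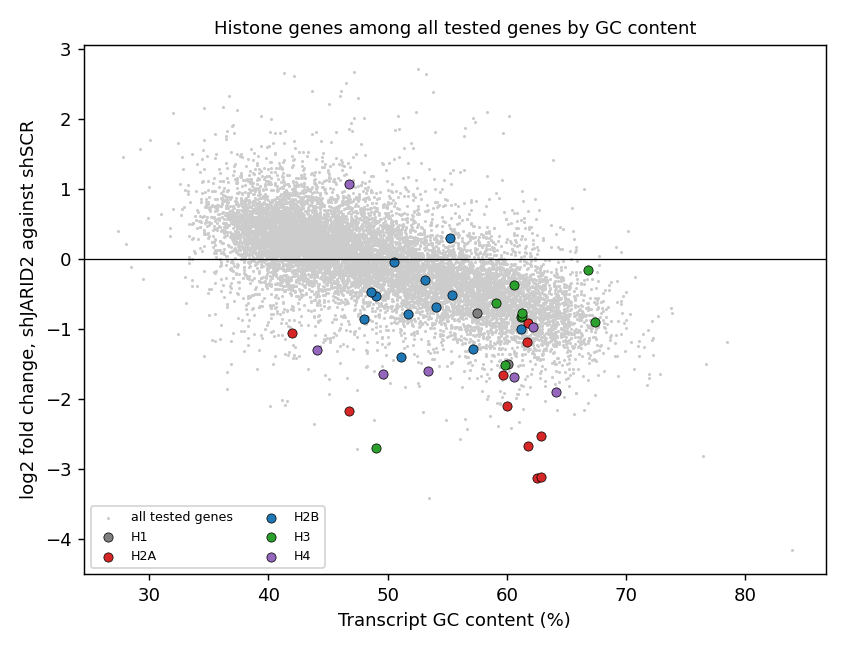
Log2 fold change against transcript GC content in percent for all tested genes with a GC value (grey) and for the 40 histone genes, coloured by type. Several H2A genes near 60% to 63% GC lie below the bulk of the grey points, and HIST1H4I lies above it at 46.8%.

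**Figure D5:**
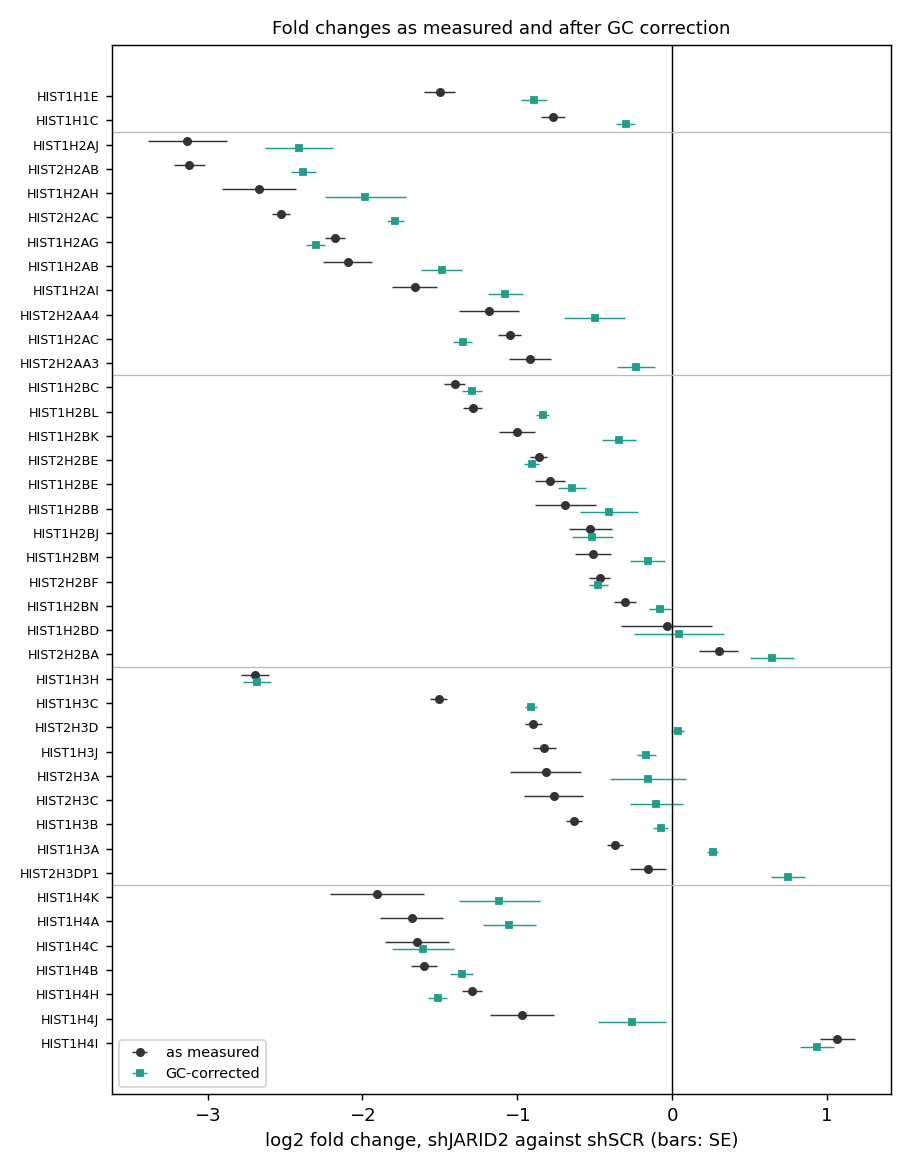
Log2 fold change with its SE for each tested member as measured (dark circles) and after GC correction (green squares), by type from H1 at the top to H4. H2A genes stay negative in both fits, from -2.41 to -0.23 after correction, while H3 genes other than HIST1H3C and HIST1H3H move to between -0.17 and 0.75.

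Members with much and with little shared sequence both fell as measured. Of the 22 tested members with under 10% of their 50-base stretches in other genes, 20 fell, with a median of -1.35. After GC correction 16 were called lower and 2 higher, with a median of -0.98. Of the 18 with more, 16 fell, with a median of -0.91. After correction 7 were called lower and 2 higher, with a median of -0.30. Over all tested rows, 31.6% fell as measured, and 21.5% were lower and 22.8% higher after correction. Over all 40 members, the log2 fold change as measured and the shared percentage had a Spearman's rho of 0.07.

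The 21 members below the filter had means of up to 0.993 FPKM (HIST2H2BC), and 2 of them, HIST1H4E and HIST1H4L, were listed at 0 in all libraries. In 16 of the 21, under 10% of the 50-base stretches are shared. HIST2H2BC was at 1.33 and 1.70 FPKM in shSCR and at 0.799 and 0.135 FPKM in shJARID2, HIST2H4A at 0.310 and 0.428 against 0.206 and 0.167 FPKM, HIST2H4B at 0.167 and 0.352 against 0.160 and 0.243 FPKM, and HIST1H4F at 0.620 and 0 against 0.247 and 0 FPKM. A further 14 had means under 0.2 FPKM and no value over 0.396 FPKM. GENCODE lists 13 other coding genes that match the naming rule and have no row under their symbol, and these were not analysed here.

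Genes that serve histone mRNA or histone protein were taken from lists of known factors. Of 30 tested genes for histone mRNA transcription and processing, 10 rose, 8 fell and 12 did not pass, with a median of -0.03, beside 28% higher and 31.6% lower over all tested rows. After GC correction 8 were called higher and 10 lower, beside 22.8% and 21.5%. SNRPG, an Sm protein shared by spliceosomal and U7 snRNPs, rose from 34.6 ± 1.07 to 124 ± 12.4 FPKM (log2 fold change 1.81). SRRT (-1.56), which links the cap-binding complex to RNA processing, SYMPK (-0.95), the scaffold of the histone cleavage complex, and UPF1 (-0.86), which acts in histone mRNA decay, fell. SLBP and NPAT, picked after their values were seen, rose: SLBP from 30.0 ± 0.262 to 52.3 ± 3.92 FPKM (0.78) and NPAT from 17.9 ± 1.45 to 28.5 ± 0.0912 FPKM (0.64; SD, n = 2 each). After GC correction these 6 genes kept their directions and their calls.

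In a list of replacement histone variants with polyadenylated mRNA, 5 of 8 tested genes were lower, beside 31.6% of all tested rows. None was higher and 3 were not called, with a median of -0.80. These genes lie outside the clusters, and whether some of their mRNAs also end in the stem-loop was not examined. After GC correction 3 were called lower and 2 higher, with a median of -0.29. Those called higher then, named after their values were seen, were H3F3B at 0.55, the other gene of H3.3, and H2AFY at 0.29. H3F3A, a gene of H3.3, fell from 29.1 ± 0.483 to 11.8 ± 0.270 FPKM (-1.23, GC-corrected -1.53), and H2AFV fell from 8.10 ± 0.0329 to 2.52 ± 0.344 FPKM (-1.37, GC-corrected -1.33). H2AFX (-1.13) and H1FX (-1.11) fell as measured and were not called after correction, at -0.23 and -0.10. Of 22 tested genes from a list of histone chaperones, 5 rose and 14 fell, beside 28% and 31.6% of all tested rows, with a median of -0.34. The import factor IPO4 was listed with them and was not tested. ASF1A, which hands H3 and H4 to other chaperones, rose (0.90), and TONSL (-1.01), CHAF1A (-0.88), a subunit of the assembly factor CAF-1, and NAP1L1 (-0.79) fell. After GC correction 3 were called higher and 10 lower, beside 22.8% and 21.5%, and TONSL at -0.24 was no longer called.

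Among 41 S-phase genes, 15 rose, 19 fell and 7 did not pass, with a median of -0.02, beside 28% higher and 31.6% lower over all tested rows. TYMS, the enzyme that makes thymidylate for DNA, fell from 32.0 ± 3.55 to 8.66 ± 0.670 FPKM (-1.77), CDT1, a replication licensing factor, fell from 17.9 ± 0.815 to 6.59 ± 0.251 FPKM (-1.32) and CCNE1, a G1/S cyclin, from 7.15 ± 0.340 to 3.25 ± 0.823 FPKM (-0.95). PCNA, the polymerase clamp, rose from 86.6 ± 2.80 to 177 ± 2.76 FPKM (1.02; SD, n = 2 each). These 4 kept their calls after GC correction, where the list had 13 higher and 10 lower, beside 22.8% and 21.5% of all tested rows. The share of cells in S phase was not measured, and its part in the histone result was not tested.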

How the data were processed

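RNA of 4 libraries was sequenced, 2 per hairpin, and grouped by the labels. The values the authors deposited are FPKM, per the file headers. The submitters' processing notes name the tools Trimmomatic, HISAT2, SAMtools and featureCounts. Their versions, the genome build, strand and the treatment of multiply matching reads are not stated in what was used here.

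Of 85553 rows, 60420 without a symbol were left out. GENCODE release 29 matched 24306 of the 25133 named rows. With its exon lengths, 95.8% to 96.3% of low FPKM values lay within 0.05 of whole reads, and 186 of 198 non-zero member values did. Rows with a mean of at least 1 FPKM (12455) were fitted as log2(FPKM + 1) in limma 3.58.1 (R 4.3.3), group as the only term, a trend in the prior variance, 2 residual and 2.36 prior degrees of freedom. GC correction subtracted a loess curve (span 0.3) on transcript GC content from each library's deviations (12097 rows). The fit was also run on simulated reads drawn independently for each library. That run cannot show whether the replicates are separate cultures. Replicates differed by more than sampling noise, with a chi-square per degree of freedom of 3.17 in shSCR and 3.66 in shJARID2.

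The members and lists were chosen with earlier results of these data known. Named were JARID2, the markers, all tested members, members below the filter with a mean of at least 0.2 FPKM, and up to 4 passing genes with the largest changes from each list.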

Additional observations from a re-analysis of the deposited data

How the results depend on the processing

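Of the 37 calls, 22 kept their direction and their side of the threshold under every alternative, 30 under every left-out library and 24 under the GC settings. The calls lower numbered 23 with GC correction, with or without the replicate block, and 20 among members with under 10% of 50-base stretches shared, a limit chosen after seeing the data. The calls higher numbered 4 with GC correction, with GC and length correction and with GC correction and the replicate block, and 1 to 2 over the left-out libraries (2 without shJARID2 replicate 2). Over the left-out libraries the calls lower ranged from 29 to 36, and the replicate block alone gave 35. The labels do not say whether libraries of the same replicate number were made together. Replicate differences of the 2 groups had a Pearson's r of 0.03 across 12455 genes, which cannot decide this. The block changed no other member's call than that of HIST1H2BB.

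With GC correction (the same with the replicate block added) and with GC and length correction, the medians were -0.58 and -0.62 for all members, -0.60 and -0.69 for H1, -1.64 and -1.68 for H2A, -0.44 and -0.49 for H2B, -0.10 and -0.17 for H3, -1.12 and -1.09 for H4, -0.89 and -0.98 for HIST1, and -0.23 and -0.30 for HIST2. Log2 fold changes reversed for HIST1H3A (0.26 and 0.20), HIST2H3D (0.036 and 0.11) and HIST2H3DP1 (0.75 and 0.81). With no filter the medians were -0.76 (all), -0.26 (H1), -1.66 (H2A), -0.52 (H2B), -0.24 (H4) and -0.69 (HIST1), since genes near 0 enter, and 9 members lost their call. A mean of at least 5 FPKM gave -1.29 (all) and -2.35 (H2A), and at least 1 FPKM in 2 libraries -0.69 (H2B). A pseudocount of 0.1 gave -1.31 (all), -2.41 (H2A) and -0.63 (H2B), and one of 0.5 gave -1.12 (all). limma-voom on recovered reads gave -1.32 (all) and -2.42 (H2A), and median-ratio scaling gave -0.58 (H2B). Over the left-out libraries the medians ranged from -1.11 to -0.94 (all), -2.25 to -2.02 (H2A) and -0.76 to -0.44 (H2B). Without the leading gene of each sum the ratio was 0.464 (all), 0.350 (H1), 0.239 (H2A), 0.488 (H3), 0.550 (H4) and 0.351 (HIST2). The cause of these shifts was not tested, other than where the setting itself gives it.

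Depth limits the values with few reads. Among the members called lower, HIST2H2AA4 rests on 3 and 1 reads in shJARID2. HIST2H2AA3 and HIST1H4J rest on 5 and 5 each, HIST1H4K on 5 and 11, and HIST1H2AJ on 12 and 23. HIST4H4, near the filter and not tested, rests on 1 and 5. Scaling alternatives moved the median of all genes by at most 0.03 on the log2 scale.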

Other observations

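The expressed members of HIST1 were not spread evenly along chromosome 6. Between HIST1H2BE and HIST1H4H lay 8 members (HIST1H4D, HIST1H2BF, HIST1H4E, HIST1H3E, HIST1H1D, HIST1H4F, HIST1H4G and HIST1H3G, chr6:26188765-26271815, GRCh38), and none of them reached the filter in these cells. Coding histone genes without a row under their symbol were not analysed. The 8 therefore need not be all the histone genes of this stretch. No library held more than 3 reads for any of the 8, and the highest values were 0.620 FPKM in shSCR (HIST1H4F) and 0.260 FPKM in shJARID2 (HIST1H4G). All 8 share under 10% of their 50-base stretches with other genes, with a maximum of 1.71%. Members on either side were expressed, with HIST1H2BE at 4.54 and 4.42 FPKM and HIST1H4H at 13.2 and 12.7 FPKM in shSCR. The stretch was picked after its values were seen.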
